A study of Mus musculus with 8 samples.

Results

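The Il10 cytokine cluster is a run of 4 cytokine genes on mouse chromosome 1, in the order Il24, Il20, Il19 and Il10, with the kinase gene Mapkapk2 beyond Il10. Its accessible chromatin was described from ATAC-seq, in which the Tn5 transposase inserts sequencing adapters into open DNA. All peaks were taken whose summit lay within 50 kb of any of these 5 genes, a window of 315.8 kb in the mm10 build. Overlapping peaks were merged over libraries into 47 regions, of 76751 in the whole genome. The locus was chosen by measured values of these data, namely peak calls that divided LPS-treated from untreated libraries near Il10 and at Mapkapk2. The LPS differences below are therefore a description, with no test. With 2 libraries against 2, an exact two-sided p for a single region cannot go below 0.333, and no p is given for the genotypes either.

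The cells were bone-marrow-derived macrophages, grown for 7 days from mouse bone marrow. They were wild type (WT) or Lamin-A knockout (KO), and were untreated or activated for 6 h with LPS (lipopolysaccharide), which bacteria carry in their outer membrane and the receptor TLR4 detects. Each of the 4 groups had 2 libraries: untreated WT, LPS-treated WT, untreated KO and LPS-treated KO. Lamin-A is a filament protein of the nuclear lamina made from Lmna. The labels give no LPS dose, targeted part of Lmna, strain, age or sex, and do not say whether replicates came from different animals, so their spread may be technical. All 8 libraries passed through freezing in medium with 5% DMSO and 10 cycles of PCR. A peak within 1 kb of a gene end was present in every library for all 9 macrophage marker genes, and in no library for the 4 B cell, 3 erythroid and 2 epithelial markers, while 1 of 4 T cell and 1 of 4 neutrophil markers had one.

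Il10 encodes an anti-inflammatory cytokine that activated macrophages secrete and that acts through its receptor, JAK kinases and STAT3 to restrain inflammatory genes. Il19, Il20 and Il24 encode relatives of IL-10 that signal mainly to epithelial cells through IL-20 receptors. Mapkapk2 encodes MK2, a kinase activated by p38 MAP kinase downstream of TLR4, which promotes the stability and translation of cytokine messenger RNAs.

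The promoters of Il19 and Mapkapk2 are shown because each overlaps a called region, Il19 in part and Mapkapk2 in full, and the 2 regions behaved differently. Of the 5 genes, Il19, Il20 and Mapkapk2 had an entry in the RefSeq promoter table (GRCm38.p6, the same assembly as mm10), and all 3 lie on the minus strand. The 250 bases before the transcription start are printed 5′ to 3′ on that strand, at chr1:130940116-130940365 for Il19 and chr1:131097844-131098093 for Mapkapk2. Capitals mark matches to 2 short motifs on either strand, an NF-kB-like pattern (GGG and CC separated by 5 bases) and a PU.1-like pattern (GAGGAA).
Il19: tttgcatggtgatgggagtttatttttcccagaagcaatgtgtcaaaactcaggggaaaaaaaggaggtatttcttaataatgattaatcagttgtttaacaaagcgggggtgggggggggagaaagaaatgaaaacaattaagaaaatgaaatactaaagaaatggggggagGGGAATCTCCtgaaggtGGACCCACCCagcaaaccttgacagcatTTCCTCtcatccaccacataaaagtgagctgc
Mapkapk2: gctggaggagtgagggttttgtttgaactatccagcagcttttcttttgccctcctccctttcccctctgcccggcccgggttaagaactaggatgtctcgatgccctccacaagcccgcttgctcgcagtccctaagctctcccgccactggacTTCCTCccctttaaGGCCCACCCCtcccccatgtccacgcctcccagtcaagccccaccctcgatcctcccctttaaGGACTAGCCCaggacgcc

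Both promoters held 2 NF-kB-like matches and 1 PU.1-like match. These patterns are common: 45.8% of the 32851 promoters in the table held the first in the same 250 bases and 23.25% the second. AP-1 (TGA and TCA separated by 1 base), CRE half-site (TGACG), TATA box (TATAAA), GC box (GGGCGG) and C/EBP-like (TTGC and AA separated by 2 bases) letters were not in either window. They were in 6.75%, 17.8%, 12.4%, 32.7% and 9.56% of all promoters. The Il19 region (130940252 to 130940607) covered only the 114 printed bases farthest from the start site. Its summits lay 310 to 397 bp from that site. All marked Il19 matches lie nearer to the start site, outside the called region. The Mapkapk2 region (131097661 to 131098107) covered all 250, with summits 11 to 67 bp from the start site. No region overlapped the Il20 promoter, and the nearest summit was 7455 bp away.

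The fold enrichment is the authors' own value, made by the peak caller within 1 library. The summit pileup is the number of reads stacked at the peak's summit, and the local background is the read depth the caller expected there from the surroundings. Both of these were solved from the deposited fold and p of each peak. The flat genome-wide background came out at 5.535 reads in all 8 libraries, so pileups are set side by side as read depths against 1 common baseline. A gained region is one with calls in each library of the first group and with none in the second, and a lost region is the opposite. Since the cells were assayed in bulk, fewer cells with an open site and less access per cell cannot be told apart.

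The 8 lists held 44504 to 59750 peaks, and the untreated WT libraries called 28 and 30 of the 47 regions, the LPS-treated WT libraries 41 and 39, the untreated KO libraries 24 and 21, and the LPS-treated KO libraries 35 each. Each LPS-treated library thus called more of the locus than each untreated library of its genotype. The lists held 53942 and 55064 peaks in untreated WT and 59750 and 55357 in LPS-treated WT. In KO they held 44504 and 47451 untreated, and 49661 and 45442 with LPS. The share of all regions that each library called was not computed. As the locus was chosen on its LPS calls, these counts are a description. There were 17 of 47 regions called in all 8 libraries, against 40.3% of all regions. A further 5 were called in a single library, a class whose share over all regions was not computed. Regions were unevenly placed: 21 had Mapkapk2 as their nearest gene and 15 had Il10, against 3 for Il19, 1 for Il20 and 0 for Il24. The remaining 7 lay nearest to the neighbours Dyrk3 (4), Fcmr (2) and Eif2d (1). The map of calls shows this crowding on the Il10 and Mapkapk2 side.

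**Figure D1:**
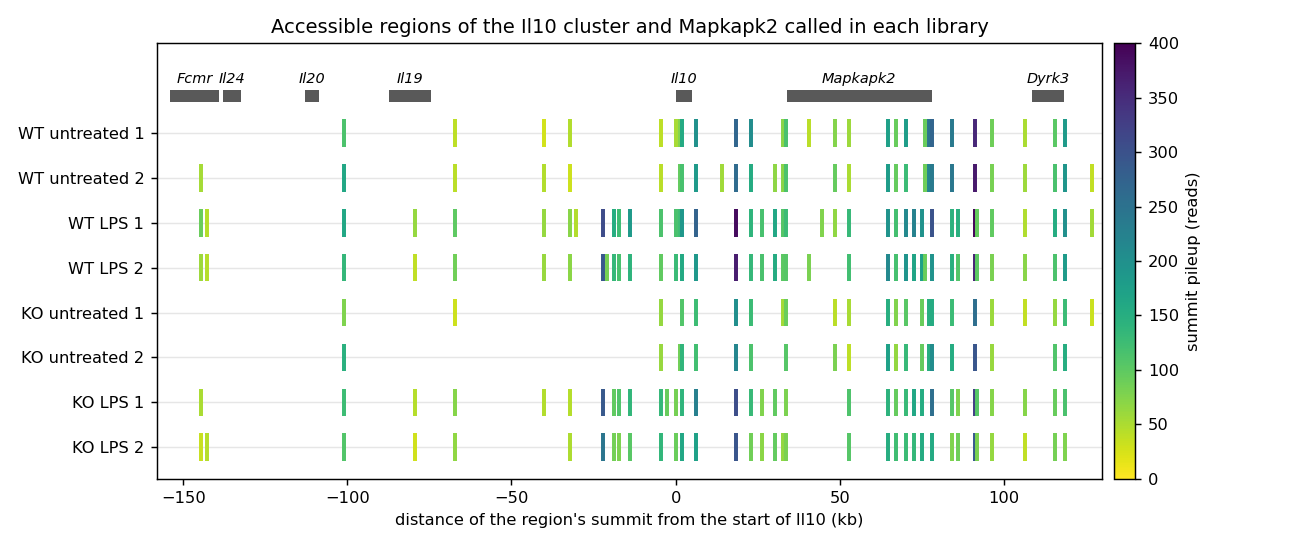
Calls in the 8 libraries (rows) against the distance of each region's summit from the start of Il10 in kb. Each tick is a called region, its colour is the summit pileup in reads, and grey bars are genes. A row of ticks between -22.1 and -14.0 kb is present in the 4 LPS-treated libraries and absent from the 4 untreated ones.

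In WT macrophages 11 of the 47 regions were gained with LPS and 1 was lost, where 10.1% of all 76751 regions were gained and 6.02% lost. KO macrophages gained 13 and lost 2, against 8.03% and 5.56% of all regions. In both genotypes, 9 regions were gained and 1 was lost (4.85% and 1.79% of all regions). These shares come from the contrast that chose the locus, so nothing is read from them.

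Il10 had the strongest gained region of the locus, on chromosome 1 from 130997422 to 130997996, 22.1 kb from the gene's start and between genes. Its pileup was 309 and 292 reads in the LPS-treated WT libraries and 290 and 244 in the LPS-treated KO libraries. No untreated library called it, and the background of the nearest called peaks on either side implies that a pileup of 28 to 32 reads would have been enough for a call there. Those peaks lay 10.02 to 78.93 kb away on the lower side and 17.75 to 17.8 kb on the upper side. The limit therefore assumes a background at the site like theirs. On that assumption the lowest LPS pileup was 9.73 times the highest limit in WT and 7.63 times in KO. Its fold enrichment was only 9.86 to 11.96, yet it ranked at percentiles 91.2 to 93.4 of -log10 p within the 4 lists over a local background of 21.1 to 30.4 reads.

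A further 3 regions followed towards Il10, each called in all 4 LPS-treated libraries and no untreated one. They began at 131000909, 131002564 and 131005606, at 18.8, 17.1 and 14.0 kb from the gene. The nearest to the gene was the strongest of the 3, with pileups of 183 and 141 in LPS-treated WT and 136 and 104 in LPS-treated KO. By the same flanking peaks, 28 to 32 would have been enough for a call in untreated libraries. The other two had 116 to 153 reads in WT and 79 to 110 in KO. Together with the strongest region they form a run of 4 gained regions in both genotypes, with no region called in all 8 libraries among them. Between them lay 1 region called only in LPS-treated WT replicate 2 (130998836 to 130999152).

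At the Il10 start itself, the region from 131019622 to 131020029 was called in untreated WT replicate 1 (52 reads) but not in replicate 2, where 49 would have been enough. With LPS its pileup was 115 and 129 in WT. In KO it was gained, with 84 and 91 reads against a limit of 42 to 43 in the untreated libraries. Inside the gene, all 8 libraries called the region from 131021541 to 131021893, at 157 and 117 reads in untreated WT, 188 and 158 in LPS-treated WT, 108 and 139 in untreated KO and 140 and 161 in LPS-treated KO. LPS-treated libraries of each genotype were higher than untreated ones there, without overlap, but the closest pair differed by only 1 read. A neighbouring region from 131020961 to 131021298 had calls in 4 libraries, namely untreated WT replicates 1 and 2, LPS-treated WT replicate 1 and untreated KO replicate 2.

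The region 4.33 kb before Il10, from 131015321 to 131015724, was weak in untreated cells and called in all 8 libraries. It held 40 and 42 reads in untreated WT, 113 and 97 in LPS-treated WT, 64 and 61 in untreated KO, and 134 and 136 in LPS-treated KO. The log2 difference with LPS was 1.35 in WT and 1.11 in KO, above 98.2% and 97.1% of the regions called in all 4 libraries compared. It also ran against the genotype difference of the genome: both KO libraries were higher than both WT libraries in each treatment, by 0.61 and 0.37 on the log2 scale. It was the one region of the locus to do so. Of all regions called in the 4 libraries compared, such regions made up 3.36% untreated and 2.83% after LPS. The region was singled out after its values were seen.

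Past the end of Il10, the 2 regions called in all 8 libraries that had Il10 as their nearest gene lay within 13.3 kb. One lay 1.08 kb past the gene's end (131025279 to 131026293), and the other 13.3 kb past it (131037955 to 131038553), which ranked at a mean percentile of 91.9, second among the 17 regions called in all 8. The latter had 270 and 261 reads in untreated WT and 389 and 368 with LPS, and 202 and 217 in untreated KO and 305 and 294 with LPS. All LPS-treated libraries exceeded all untreated libraries there, by 0.51 on the log2 scale in WT and 0.52 in KO. The former had 199 and 184 reads against 274 and 186 in WT, and 125 and 121 against 228 and 172 in KO.

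Mapkapk2 kept its promoter region in every library. Its pileup was 271 and 237 reads in untreated WT, 297 and 194 in LPS-treated WT, 155 and 206 in untreated KO, and 256 and 157 in LPS-treated KO. The groups overlapped, and the log2 difference with LPS was -0.08 in WT and 0.17 in KO. In contrast, the Il19 promoter region was called in the LPS-treated libraries alone, with 64 and 38 reads in WT and 45 and 29 in KO. It lies inside the annotated span of Il19, 5.01 kb from the upper end. It was weak, at percentiles of 2.17 to 46.9, and a call in the untreated libraries would have needed 22 to 29 reads by the lowest -log10 p of each list, though no list held a pileup under 23 on the flat background. Thus the lowest LPS-treated KO library only equalled that limit.

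The one region lost in both genotypes lay inside Mapkapk2, from 131096789 to 131097247. Its summit was 0.876 kb from the gene's upper end, which is the promoter end, and it lay next to the promoter region. The lost region's pileup was 245 and 217 reads in untreated WT and 149 and 153 in untreated KO, at percentiles of 64.7 to 80.5. No LPS-treated library called it, although the backgrounds of the flanking peaks would have allowed a call at 67 to 90 reads in WT and 64 to 69 in KO. The lowest untreated pileup was 2.41 times the higher limit in WT and 2.16 times in KO. No other region of the locus had the same pattern of calls.

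**Figure D2:**
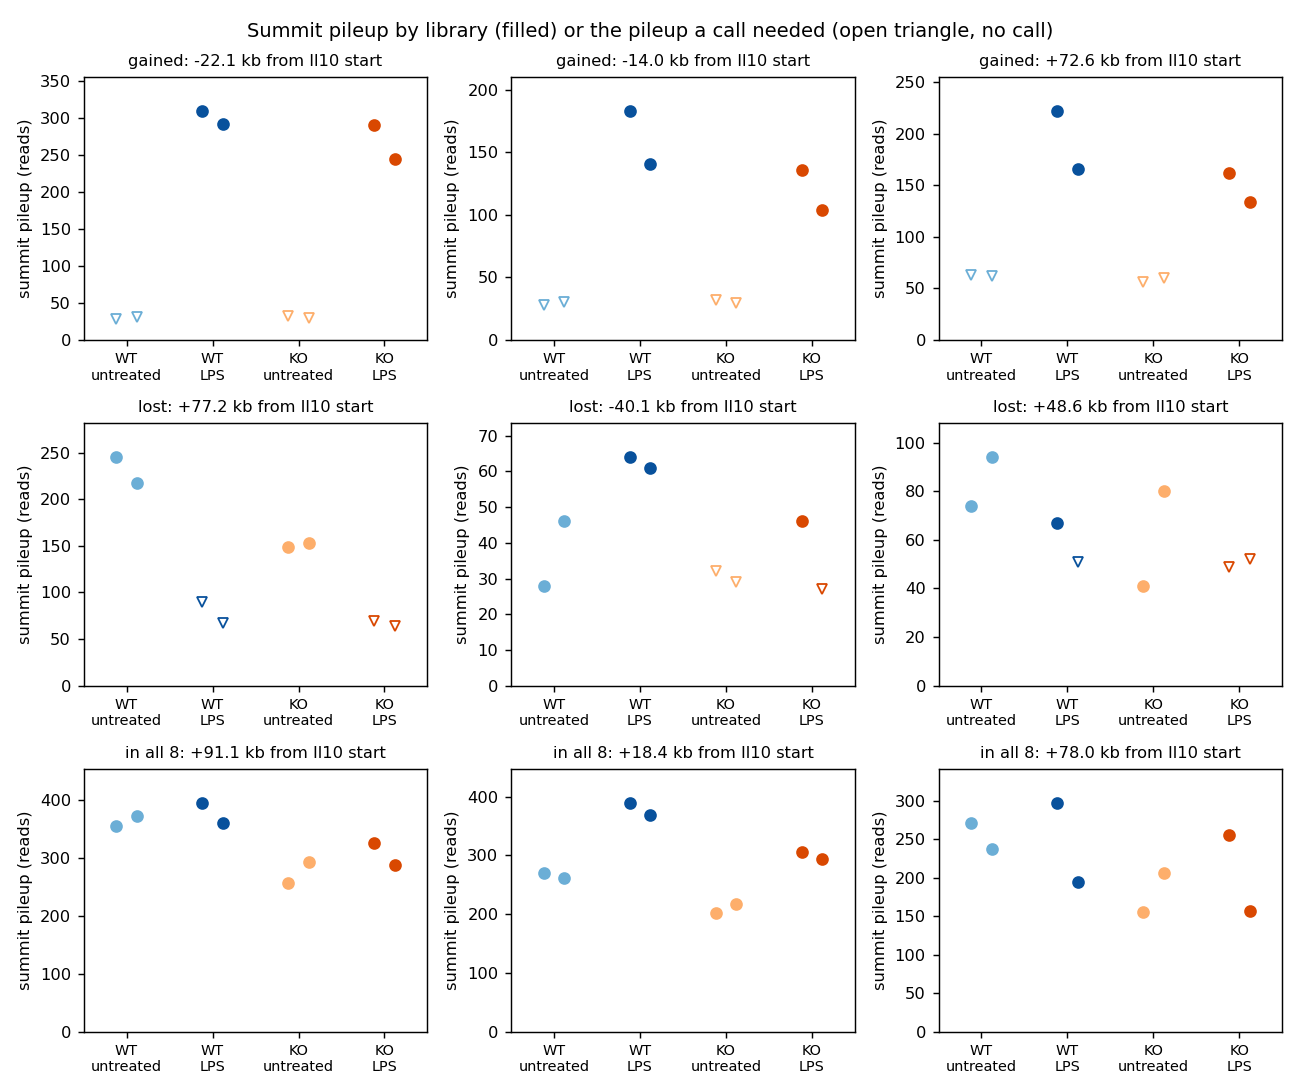
Summit pileup in reads (y axis, from 0) of 9 named regions in the 4 groups, 1 point per library. Open triangles stand at the pileup a call would have needed in a library without one, from the flanking peaks. The lost region at +77.2 kb from the Il10 start has 149 to 245 reads untreated and no call with LPS, with triangles at 64 to 90. The gained region at -22.1 kb has no call untreated, with triangles at 28 to 32, and 244 to 309 reads with LPS. The triangles assume a background like that of the flanking peaks.

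On the gene-body side of the lost region, 2 regions of Mapkapk2 were gained. The region from 131092223 to 131092612 was gained in both genotypes, with 222 and 166 reads in WT and 162 and 134 in KO, against limits of 62 to 63 and 56 to 60 in untreated cells. The region from 131094553 to 131094903 was gained in WT, at 198 and 171 reads. Untreated KO libraries already called it, at 92 and 94 reads, and it reached 154 and 156 with LPS. It was the 1 region of the locus gained in untreated KO against WT, a class that held 0.735% of all regions.

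Several regions outside the Mapkapk2 span were gained in both genotypes, namely those from 131046014 to 131046853, from 131105658 to 131106011 and from 131111523 to 131111791. Their lowest LPS pileups were 115, 109 and 94 reads in WT and 70, 78 and 81 in KO, each above the 41 to 53 needed for a call in untreated libraries. The region from 131050059 to 131050396, 3.47 kb from the gene, was gained in KO (98 and 96 reads). In WT it was called in untreated replicate 2 too (68 reads, against 161 and 155 with LPS). The region from 131050059 therefore does not share the pattern of the strongest gained region. The 9 regions with that pattern, itself included, are 4 before Il10, 4 around or in Mapkapk2 (with that from 131092223) and 1 at Il19.

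The strongest region of the locus, 13.1 kb from the Mapkapk2 promoter end (131110516 to 131111244, mean percentile 94.9), was called throughout. It held 355 and 372 reads in untreated WT, 394 and 360 in LPS-treated WT, 257 and 293 in untreated KO and 326 and 288 in LPS-treated KO. Treatments overlapped within each genotype. A region 6.05 kb from the same end (131103421 to 131104239) was lower with LPS, at 144 and 148 reads against 239 and 241 in WT, and 105 and 77 against 128 and 154 in KO. Inside the gene, the region from 131072358 to 131072801 was higher with LPS, at 132 and 121 against 59 and 51 in WT, and 111 and 106 against 52 and 40 in KO.

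The lost call in KO inside Mapkapk2 from 131068205 to 131068619 was less clear. Untreated KO libraries had 41 and 80 reads, untreated WT libraries 74 and 94, and LPS-treated WT replicate 1 had 67. By the higher flanking background, a call in LPS-treated KO replicates 1 and 2 would have needed 49 and 52 reads. Those limits rest on the farther flanking peak, with backgrounds of 20.64 and 21.62 reads. The nearer flanking peak, 4.182 and 4.146 kb away, had backgrounds of only 15.6 and 14.62 reads. The limits therefore cannot decide whether a pileup like that of untreated KO replicate 1 would have been called.

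The Il24 and Il20 side held little. The region nearest to Il24 (130876911 to 130877283) lay 4.97 kb from it, inside Fcmr, which encodes an Fc receptor for IgM. It was called in both LPS-treated WT libraries, at 45 and 44 reads, and in LPS-treated KO replicate 2 at 44. Its fellow in Fcmr, from 130875098 to 130875493, was gained in KO (51 and 33 reads), while WT called it in untreated replicate 2 (54) and with LPS (92 and 58). The lower LPS-treated library of each gain in Fcmr, at 44 reads in WT and 33 in KO, was below the highest pileup an untreated library could have needed, 47 and 37 reads. Those limits rest on a flanking peak 159.5 and 157.7 kb away, with backgrounds of 18.88 and 12.88 reads. The nearer flanking peak, 41.7 and 43.5 kb away, had only 6.18 and 5.535 reads, so these limits say little about the site. The region nearest to Il20, 7.46 kb from it (130918270 to 130919011), was called in all 8 with 113, 161, 162 and 135 reads in WT and 77, 146, 126 and 109 in KO, untreated first. Past Il19, the region from 130952434 to 130952972 had 99 and 86 reads in LPS-treated WT against 40 and 42 untreated, and 72 and 66 in LPS-treated KO against 30 in untreated replicate 1 and no call in replicate 2.

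At the window limits, the first inside the lower limit was the Fcmr region from 130875098 with folds of 4.36 to 8.63 and pileups of 33 to 92 reads, and the next outside, from 130716829, lay 164.5 kb from Il24 with folds of 4.83 to 6.09 and pileups of 63 to 136. At the upper limit, the region from 131146362 (48.6 kb from Mapkapk2, called in 3 libraries, folds of 5.05 to 7.75) was inside, and the region from 131153001 (55.3 kb away, 7 libraries, 7.04 to 9.95) was outside.

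LPS-treated libraries also had a higher local background over Il10 and Mapkapk2. At the region inside Il10 it was 21.1 and 21.9 reads in untreated WT and 47.4 and 42.5 with LPS, and 16.8 and 16.9 in untreated KO and 34.2 and 31.6 with LPS. At the lower end of Mapkapk2 (131053169 to 131053606) it was 13.4 and 15 against 36.3 and 31.4 in WT, a log2 difference of 1.25 that exceeded 99.3% of regions called in all 4 libraries. In KO it was 12.1 and 11.5 against 20.6 and 21.6 there. By contrast, at the Mapkapk2 promoter the background was 26.1 and 25.4 reads against 30.8 and 25.6 in WT. Beyond Il19, at 130979505, it stayed at the flat 5.535 reads in each library with a call.

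Of the 22 locus regions called in all 4 WT libraries, 18 had a background higher in both LPS-treated libraries than in both untreated ones, against 28.2% of the 40001 such regions in the genome. In KO it was 14 of 18, against 26.2% of 32091. The median background ratio was 1.53 in WT and 1.55 in KO for the locus, and 0.984 in each genotype for all such regions. The background steps in multiples of 0.02, as reads extended to 200 bp and averaged over 10 kb would give, so neighbouring peaks share reads and are not separate measurements. Such an average also takes in the reads of the peaks themselves, gained ones included, so background and pileup are not separate either. How much of the LPS difference in background those reads make up was not tested. As the locus was chosen on its LPS calls, these shares are a description as well.

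**Figure D3:**
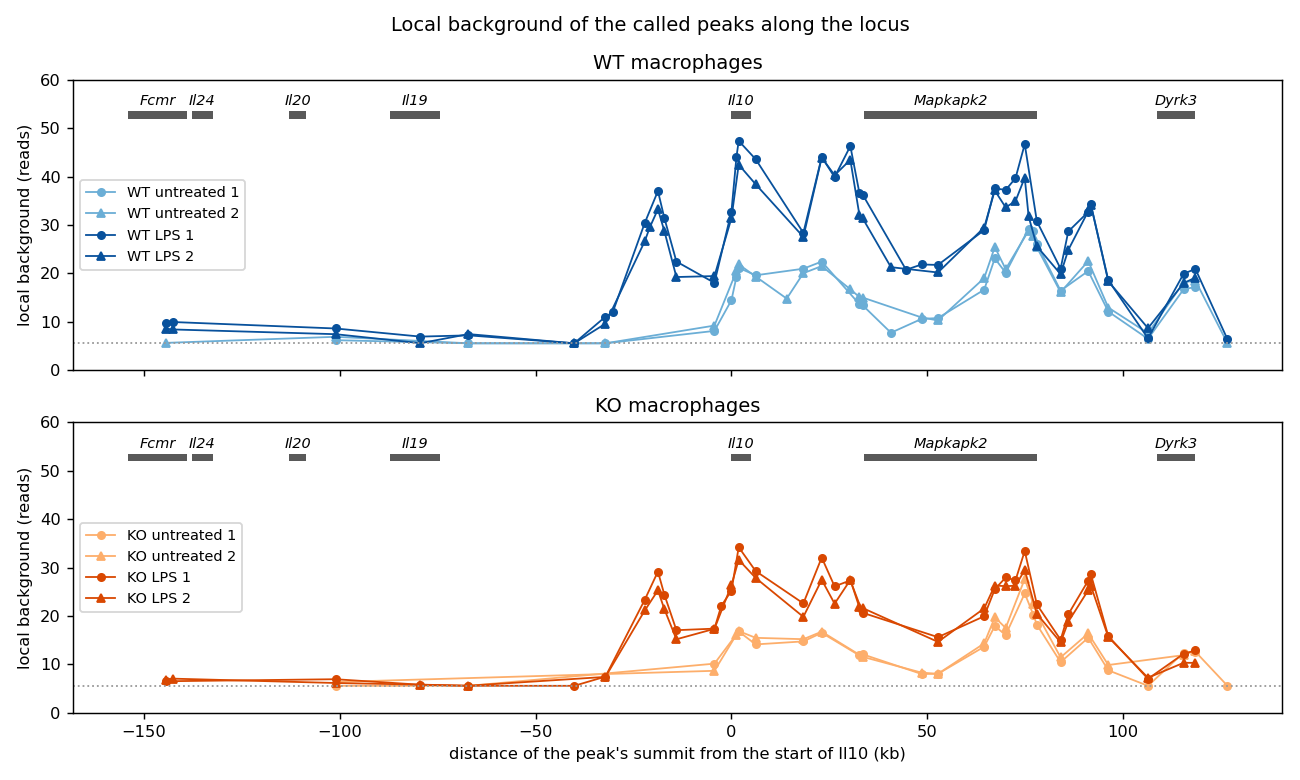
Local background in reads of each called peak (y axis) against the distance of its summit from the start of Il10 in kb, WT above and KO below. Lines join neighbouring called peaks of 1 library, and the dotted line is the flat background of 5.535 reads. Between about Il10 and the lower end of Mapkapk2 the LPS-treated WT libraries reach 47.4 reads, and the LPS-treated KO libraries 34.2.

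The fold divides the pileup by the background, so the 2 can differ in direction. At the region inside Il10 from 131021541 the fold was lower with LPS, at 3.91 and 3.66 against 7.14 and 5.16 in WT and 4.01 and 4.97 against 6.13 and 7.84 in KO, where the pileups given above were higher. Elsewhere the fold differed more than the pileup. At the region from 131042702 to 131043121, between Il10 and Mapkapk2, the fold was 8.83 and 6.98 in untreated WT and 3.13 and 3.0 with LPS. Its pileup was 206 and 156 against 140 and 134, while the background went from 22.4 and 21.5 to 44.1 and 43.9. At the lower end of Mapkapk2 the WT fold was 8.06 and 7.12 untreated and 3.46 and 3.30 with LPS. The WT pileups there, 115 and 113 against 128 and 106, overlapped. In KO the fold was 7.04 and 8.45 against 3.70 and 3.58, and the pileup was lower with LPS without overlap, at 79 and 80 reads against 91 and 105. The strongest region of the locus had WT folds of 16.6 and 15.8 untreated and 11.7 and 10.7 with LPS, with overlapping pileups.

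Pileup itself was higher with LPS without overlap at 11 of the 22 regions in WT (20.8% genome-wide) and lower at 2 (46%). In KO the counts were 8 and 3 of 18 (18.5% and 39.9% genome-wide). These genome-wide shares are of all regions called in the 4 libraries compared. The median pileup ratio was 1.199 in WT and 1.115 in KO for the locus, and 0.891 and 0.881 for all such regions.

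**Figure D4:**
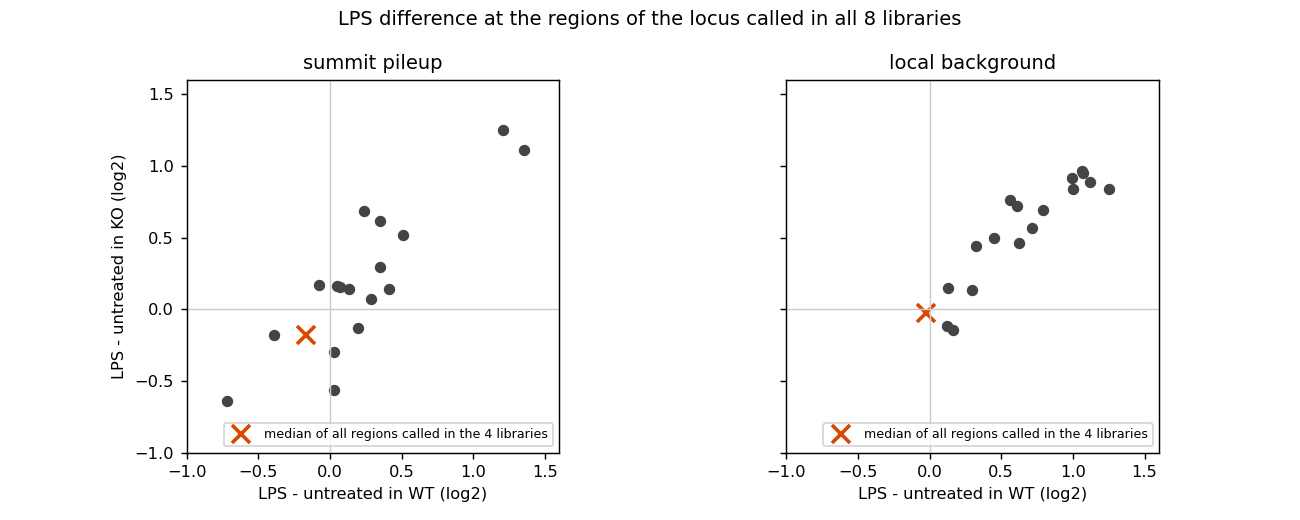
Log2 difference between LPS-treated and untreated libraries in WT (x axis) and KO (y axis) for the 17 locus regions called in all 8 libraries, for summit pileup (left) and local background (right). Each dot is a region and the cross is the median of all regions called in the 4 libraries compared. In the right panel most dots lie above 0 on both axes, up to 1.25 in WT and 0.97 in KO, while the cross lies at -0.02.

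KO and WT were compared within each treatment. After LPS, no locus region was gained or lost in KO against WT, where 0.711% of all regions were gained and 6.94% lost. Leaving out 1 library gave 1 to 6 lost, with 3 and 6 lost without LPS-treated WT replicates 1 and 2, 1 lost without KO replicate 1, and 2 lost and 1 gained without KO replicate 2. The run of 4 gained regions before Il10 was present in both genotypes. Untreated, 1 was gained (above) and 3 were lost, against 6.22% of all regions lost. The lost ones were from 130979505 to 130979877 (28 and 46 reads in WT), from 130987470 to 130987887 (46 and 31) and from 131095617 to 131095918 (91 and 88). With equal numbers of peaks per library 0 were lost, within 20 kb of the genes 1 was, and with 1 library left out 4 to 6 were (6 and 5 without WT replicates 1 and 2, 6 and 4 without KO replicates 1 and 2). In the first and second region, the lower WT pileup was below the 32 reads a call could have needed in KO.

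Pileups and local backgrounds at called regions were lower in KO, in the locus and over all regions, while the flat background was the same. Of the 33 locus regions called in all 4 LPS-treated libraries, 25 had a lower pileup in both KO libraries and 31 a lower background. Over all such regions of the genome the shares were 61.8% and 69.9%. Untreated, the counts were 12 and 17 of 19 (65.3% and 71.1%). The median KO to WT ratio of pileup was 0.756 after LPS and 0.755 untreated, with 0.790 and 0.793 for all such regions. For the background it was 0.733 and 0.757, with 0.844 and 0.841 for all such regions. The KO lists were also shorter, and the part of this in the locus values was not tested. At the strongest gained region of Il10 the log2 difference of KO from WT after LPS was -0.18 for pileup and -0.36 for background.

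Other genes of the pathway were taken from a list of 46, written with earlier results of these data known, so it supports nothing by itself. Of the 44 with a region nearest to them within 50 kb, 27 had a region gained with LPS in WT and 17 a lost one, against 25.8% and 20% of the 15266 genes with a region. In KO it was 24 and 12, against 22.2% and 18.7%. The listed genes had a median of 9 regions and all genes 3, so the listed genes had more regions in which a difference could fall.

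Among receptors and JAK-STAT genes, 7 of 10 had a gained region in WT and 8 in KO, and 2 and 4 had a lost one. Il20rb, a subunit of the IL-20 receptors, had 3 of 7 regions gained in WT and 1 in KO. Stat3, the transcription factor that carries the IL-10 signal, had 3 of 11 and 2, with 0 lost in WT and 1 in KO. Nfil3, a STAT3 target in macrophages, had 3 of 13 and 1. Socs3, a feedback inhibitor of cytokine receptors, had 2 of 18 gained in WT and 3 in KO, and 2 lost in each. Over all regions, 10.1% were gained with LPS in WT and 8.03% in KO, and 6.02% and 5.56% were lost. The Socs3 gains in WT lie near these shares, and so do the KO gains of Nfil3 and, below, of Cebpb. From counts of 1 or 2 regions, here and below, nothing is read. Genes here and below were named for holding 3 or more gained or 3 or more lost regions, which favours genes with many regions. Il10ra, the ligand-binding subunit of the IL-10 receptor, had 2 of 10 regions lost in WT and 4 in KO, and 0 and 1 gained.

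In the p38 and MK2 pathway 6 of 17 genes had a gained region in each genotype, while 6 had a lost one in WT and 5 in KO. Map2k6, a kinase that activates p38, had 4 of 19 gained in WT and 3 in KO and 1 lost in each, and 4 of its regions were lost in untreated KO against WT. Dusp1, a phosphatase that inactivates p38, had 5 of 16 gained in WT and 3 in KO, and 0 and 2 lost. After LPS, 3 Dusp1 regions were lost and 1 gained in KO against WT. Over all regions, 6.22% were lost in untreated KO, and 6.94% were lost and 0.711% gained after LPS. Of the 44 listed genes with a region, 17 had one lost in untreated KO and 21 after LPS. The share over all genes was not computed, and the listed genes had a median of 9 regions against 3. Nothing is therefore read from these 2 counts. Among regulators of Il10 14 of 17 had a gained region in WT and 10 in KO, and 9 and 3 had a lost one. They included Nfkb1 with 9 of 26 and 6 (2 lost in each) and Prdm1, a transcriptional repressor, with 5 of 18 and 4 (1 lost in WT, 0 in KO). The transcription factors Cebpb and Fos had 3 of 13 and 1 (0 lost in each) and 3 of 17 and 1 (1 lost in WT, 0 in KO). Bhlhe40, a repressor of Il10, had 3 of 13 regions lost in WT and 0 in KO, and 1 gained in each.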

How the data were processed

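The deposited files were peak lists, 1 per library, with replicates not pooled. Per the submitters' processing notes, BWA 0.7.12, MACS2 and the mm10 build were used. The filter behind the lists, the MACS2 settings and the read totals are not given in the sources used here. The deposited fold enrichment is a ratio made by the authors' peak caller, the -log10 p and -log10 q are the authors' too, and the deposited score is 10 times the -log10 p. Groups followed the sample titles, since the source names of LPS libraries also carry the word untreated.

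Peaks overlapping by at least 1 bp were merged over libraries into regions, which a library called when any of its peaks overlapped. For each of the 411171 peaks, the whole-number pileup and the background that give the deposited fold, as (pileup + 1) / (background + 1), and the Poisson p were solved. All fitted within 0.001 of the -log10 p, and all backgrounds above the flat level were multiples of 0.02 within 0.002. The solver and the merging were tested on simulated data. The lowest pileup called on the flat background was 23 or 24 reads per library. Where a library had no call, the pileup a call needed was taken from the higher background of the 2 flanking peaks and the lowest -log10 p of that list (7.35 to 7.93), so it assumes a background like theirs and no other filter. Intervals are not given, because depth is known only as these pileups. Percentiles are of -log10 p within a list, and lists differ in length.

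Genes came from RefSeq (GRCm38.p6). A region went to the nearest protein-coding gene within 50 kb, by its strongest summit. Regions named are those gained or lost in any comparison, the 3 strongest called in all libraries, those nearest the gene ends and at the window limits, and the regions at the start or inside of the members; others were chosen after their values were seen. The members, lists and rules were chosen with earlier results of these data known. Python 3.11.15, pandas 2.3.3 and scipy 1.17.1 were used. Alternatives were a -log10 p of at least 20, equal numbers of peaks (44504), joining by summits within 250 bp, 20 kb windows and leaving out each library, with 1 more chosen after seeing the data.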

Additional observations from a re-analysis of the deposited data

How the results depend on the processing

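Counts of gained regions with LPS stayed within 1.5 times in both genotypes: 10 to 11 in WT and 10 to 15 in KO when peaks were limited to a -log10 p of at least 20, to equal numbers per library, joined by summits or taken within 20 kb, and 12 to 13 in WT and 13 to 15 in KO when 1 library was left out. The small counts moved more. Regions lost with LPS in WT went from 1 to 2 at a -log10 p of at least 20, with equal numbers and when joined by summits. Regions lost in KO went from 2 to 1 at a -log10 p of at least 20. Regions gained in untreated KO against WT went from 1 to 2 at a -log10 p of at least 20 and with equal numbers, and regions lost there went from 3 to 0 with equal numbers and to 1 within 20 kb. After LPS, regions lost in KO went from 0 to 2 at a -log10 p of at least 20. The cause was not tested. With 1 library left out, regions lost with LPS were 1 to 3 in WT and 2 to 3 in KO, regions lost in untreated KO were 4 to 6, and after LPS regions gained in KO were 0 to 1 and lost 1 to 6. A group of 1 library has fewer calls to meet, by construction. An alternative chosen after seeing the data required a pileup above the one a call needed, which left 10 gained and 1 lost in WT and 11 gained and 1 lost in KO. No paired analysis was made, since no result here comes from a test and the labels do not tie replicate numbers to animals. Replicate numbers were used only as names. Pileups of 23 or 24 reads limit what could be called, and more where the local background is higher, so a missing call is not the same as closed DNA.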
